A study of Homo sapiens with 12 samples.

Results

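The genes described here are 145 ZNF zinc finger genes of human chromosome 19, measured by RNA sequencing in LNCaP cells after knockdown of TRIM28 or FOXA1. They were chosen by name and place alone: a symbol of ZNF followed by digits, on chromosome 19, with a start below position 51500000 of GRCh38. They are 145 of the 60835 gene symbols in the deposited tables and 145 of the 476 symbols with that pattern. Of the other ZNF symbols, 96 lie further along 19q and 235 on other chromosomes. LNCaP is an androgen-sensitive prostate cancer line grown from a lymph node metastasis. The 12 libraries were made from poly(A) RNA in 4 groups of 3 biological replicates: cells given shRNA against TRIM28, cells given control shRNA for TRIM28, cells given shRNA against FOXA1, and cells given control shRNA for FOXA1. Each knockdown has its own control libraries. The titles of the knockdown arms read SH control and their column names SI, and all 12 libraries carry batch label 1. The labels give neither the time after knockdown nor the hairpin sequences, so the number of hairpins per target is not given in the sources used here.

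Most ZNF genes of chromosome 19 encode proteins with a KRAB domain at one end and a run of C2H2 zinc fingers at the other. The fingers bind DNA, often within transposable elements, and the KRAB domain recruits TRIM28, a corepressor that brings in the methyltransferase SETDB1 and heterochromatin protein 1, which mark and read trimethylated histone H3 lysine 9. Many of these genes lie in tandem clusters that arose by duplication, and in several cell types the clusters themselves carry TRIM28 and this histone mark. FOXA1, a pioneer factor of luminal prostate cells, opens closed chromatin to other transcription factors.

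Library totals ranged from 12256092 to 15152890 counts. TRIM28 stood at 34.0%, 30.1% and 14.46% of its control mean in the 3 TRIM28 knockdown libraries, and FOXA1 at 29.4%, 29.02% and 29.47% in the 3 FOXA1 knockdown libraries, by counts per library total. Cells with less TRIM28 also had less FOXA1 (log2 fold change -0.90, adjusted p = 0.0055, edgeR). The third TRIM28 knockdown library (replicate 3) was unlike its 2 partners: a chi-square of its counts against theirs came to 22.6 and 20.4 per degree of freedom over all genes, against 3.73 between replicates 1 and 2 and 2.94 to 5.73 within the other groups. Over the ZNF genes alone these values were 6.94 and 6.54, against 2.36. KLK3, a luminal prostate marker, had a mean of 41.7 CPM (normalised counts, scaled per library by TMM) in TRIM28 knockdown libraries and 79.2 CPM in their controls, and 129 CPM in FOXA1 knockdown libraries and 78.1 CPM in theirs. Markers of leukocytes summed to under 1 CPM in every library. The 5 markers of fibroblasts and endothelium summed to 39.3, 45.0 and 251.7 CPM in the 3 TRIM28 knockdown libraries and to between 31.0 and 37.8 CPM in their controls, with COL1A1 at a mean of 61.0 against 24.5 CPM, COL1A2 at 31.0 against 2.24 CPM and DCN at 9.25 against 1.02 CPM. The 3 basal markers summed to between 0.323 and 2.37 CPM in TRIM28 knockdown libraries and 0.32 to 0.432 CPM in controls, with TP63 at 0 in the knockdown. In FOXA1 knockdown libraries they summed to between 2.93 and 3.49 CPM and in the FOXA1 controls to between 0.3 and 0.998 CPM, with KRT14 at a mean of 2.83 against 0.327 CPM. The stromal list summed to between 33.5 and 41.1 CPM in FOXA1 knockdown libraries and 32.7 to 37.9 CPM in controls. The part of these markers in the results on either knockdown was not tested.

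The 145 genes fall into 7 groups along the chromosome, separated by gaps of over 1000000 bases between starts, plus 9 scattered genes. Group 1 has 5 genes at 2.8 to 2.9 Mb, from ZNF554 to ZNF77. Group 2 has 15 genes at 7.1 to 9.8 Mb, and group 3 has 25 genes at 11.5 to 12.6 Mb. Group 4, the 19p12 cluster, is the biggest, with 37 genes at 19.7 to 24.1 Mb from ZNF101 to ZNF254. Group 5 has 5 genes at 34.7 to 35.0 Mb, group 6 has 25 genes at 36.2 to 37.8 Mb, and group 7 has 24 genes at 43.5 to 45.1 Mb from ZNF575 to ZNF296. All 145 are annotated as protein-coding in GENCODE release 29. A pattern for the KRAB A box was found in the coding translation of 123, and the median number of C2H2 fingers was 13, with a range of 0 to 39. The copies resemble one another: a median of 2.65% of a gene's 50-base stretches also occurred in transcripts of another gene, and for 6 genes it was over 50%. Of those 6, 1 had enough counts to be tested, ZNF490, and it was called in neither knockdown. Whether the authors counted by strand is not given in the sources used here, and 85 of the 145 overlap an antisense gene, among them 13 of the 32 genes called in the TRIM28 knockdown and 19 of the 39 called in the FOXA1 knockdown, so part of these counts may come from the other strand.

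Most of these genes were expressed at a low level. Over the 6 control libraries the median gene had 1.62 FPKM, a deposited level per length. In all, 94 genes reached 1 FPKM, 22 reached 5 FPKM, and 23 were under 0.1 FPKM. ZNF146, which encodes a protein made almost wholly of zinc fingers with no KRAB domain, had the highest level, at 60.9 ± 2.18 FPKM (SD, n = 6 controls). ZNF121 followed at 18.2 ± 0.79 FPKM, ZNF627 at 12.7 ± 0.62 FPKM and ZNF260, which in the rat heart is known as a partner of GATA4, at 10.8 ± 0.42 FPKM. These 4 levels differ from one another by more than their spread. ZNF317 at 9.91 ± 0.91 FPKM and ZNF254 at 9.72 ± 0.69 FPKM did not differ beyond it. The top genes of the remaining groups were ZNF302 in group 5 at 5.34 FPKM, ZNF296 in group 7 at 6.87 FPKM and ZNF77 in group 1 at 2.38 FPKM. The median level was highest in group 5 at 3.43 FPKM and lowest in group 1 at 0.119 FPKM.

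**Figure D1:**
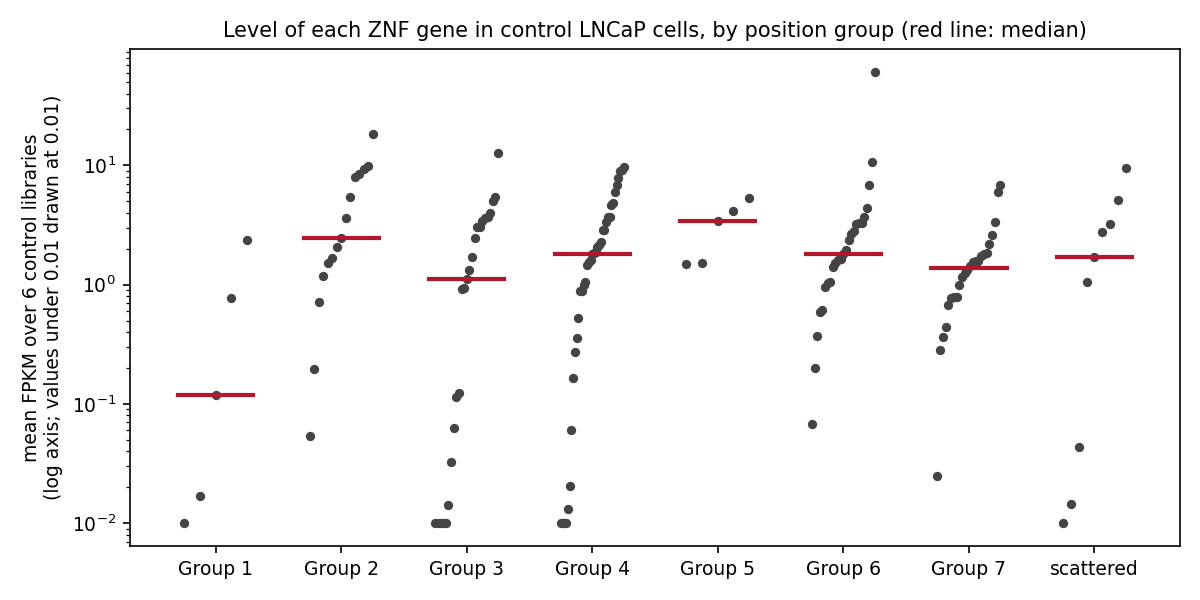
Mean FPKM over the 6 control libraries (log axis) for each of the 145 ZNF genes, by position group, with the group median in red. The 19p12 cluster (group 4) runs from under 0.01 FPKM to 9.72 FPKM for ZNF254, and ZNF146 in group 6 stands highest at 60.9 FPKM.

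The first comparison asked which of these genes changed with less TRIM28. The ZNF genes as a set were higher: they took 0.226%, 0.239% and 0.25% of all counts in the 3 TRIM28 knockdown libraries, against 0.197%, 0.188% and 0.195% in their controls. Their summed level was 505, 524 and 544 FPKM in the knockdown libraries, against 439, 420 and 431 FPKM in the controls, with no overlap between the groups. In bulk samples, more RNA per cell cannot be told apart from a change in the cells that make it. Of the 117 ZNF genes that passed the filter on low counts, 30 rose and 2 fell at an adjusted p under 0.05 (edgeR's quasi-likelihood test, Benjamini-Hochberg over 14981 genes). Over all genes tested 26.7% were called, 13.3% higher and 13.3% lower, against 25.6% higher and 1.71% lower for the ZNF genes tested. Their median log2 fold change was 0.26, against 0.00 for all genes. The other 28 ZNF genes had too few counts to be tested. Without scaling beyond library size the calls over all genes were less even, at 2597 higher and 1502 lower in place of 1994 and 1999, and 37 ZNF genes rose and 1 fell. The number of rises changed with the libraries used, for ZNF genes and for all genes. It was 14, 11 and 15 without control replicate 1, 2 and 3, where all genes gave 924, 936 and 1030 rises. It was 20 without knockdown replicate 2, where all genes gave 1262. Without knockdown replicate 3 it was 39, with 13 falls, where all genes gave 3333 and 3633. There was 1 fall without knockdown replicate 2 or any 1 control.

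The libraries of the 2 groups were fully apart for 48 ZNF genes in the upward direction, which is 41.0% of those tested where 21.8% of all genes were. For 3 ZNF genes, or 2.6%, they were apart in the downward direction, against 22.1% of all genes. Fold changes were modest, since 4 rises and no fall reached 2-fold, where 3.26% of all genes did so upward and 1.27% downward, and the least rise was 0.32 on the log2 scale. Genes with the KRAB pattern made up 28 of the 30 rises and neither of the 2 falls, with 101 tested and a median of 0.32. The 16 tested genes without it gave 2 rises and 2 falls, with a median of -0.02. No test was run between these sets. ZNF genes further along 19q gave 39 rises and 5 falls of 93 tested, and those on other chromosomes 36 and 9 of 201. The other genes of chromosome 19 below the same position gave 44 rises and 152 falls of 731.

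Among the rises that also passed without any 1 library was ZNF554, the first gene of the set (19:2819868-2836735, plus strand). It had 7.83, 6.69 and 6.98 CPM in TRIM28 knockdown libraries, against 3.24, 3.31 and 2.96 CPM in controls (log2 fold change 1.17, SE 0.20, adjusted p = 0.00297). All 3 knockdown libraries lay well above the controls, which were close together. ZNF737 of the 19p12 cluster (19:20535825-20565809, minus strand) had 27.2, 26.8 and 33.0 CPM in knockdown libraries, against 13.0, 12.8 and 12.8 CPM in controls (log2 fold change 1.17, SE 0.13, adjusted p = 0.000485). Its 3 control libraries were nearly equal. ZNF493, also of 19p12, had 18.5, 23.5 and 14.1 CPM in knockdown libraries, against 10.6, 7.82 and 8.73 CPM in controls (log2 fold change 1.05, SE 0.20, adjusted p = 0.00497). ZNF461 of group 6 had 11.1, 13.3 and 10.6 CPM, against 5.48, 6.77 and 6.58 CPM in controls (log2 fold change 0.89, adjusted p = 0.00565). ZNF234 of group 7 had 12.9, 13.0 and 11.9 CPM, against 8.00, 5.57 and 7.16 CPM in controls (log2 fold change 0.87, adjusted p = 0.00628). In each of these 5 genes the lowest knockdown library exceeded the highest control.

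Other rises held less firmly. ZNF221 of group 7 had the largest fold change but few counts, with 1.96, 1.81 and 3.00 CPM in knockdown libraries and 0.937, 0.602 and 0.988 CPM in controls (log2 fold change 1.41, SE 0.38, adjusted p = 0.0202). The call was lost without any 1 of the 3 control libraries, with adjusted p up to 0.0919. ZNF136, a KRAB repressor gene of group 3, had 13.99, 12.1 and 20.4 CPM in knockdown libraries, against 7.71, 8.50 and 9.55 CPM in controls (log2 fold change 0.85, adjusted p = 0.0132). That call was lost without control replicate 1 or 2. ZNF383 of group 6 had 6.77, 7.39 and 7.14 CPM, against 4.54, 3.76 and 4.45 CPM in controls (log2 fold change 0.74, adjusted p = 0.0191), and was lost in 4 of the 6 fits that each left out 1 library. ZNF260, the fourth most abundant gene of the set, held in all 6 such fits: it had 94.4, 100.8 and 82.2 CPM in knockdown libraries, against 54.8, 59.6 and 62.1 CPM in controls (log2 fold change 0.65, SE 0.10, adjusted p = 0.0019). In all, 10 of the 32 calls held in every one of these fits.

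The 2 falls, ZNF358 and ZNF414, both lie in group 2, and neither has the KRAB pattern. ZNF414 (19:8509678-8514167, minus strand) had 13.9, 9.44 and 10.2 CPM in TRIM28 knockdown libraries, against 21.0, 21.3 and 20.2 CPM in controls (log2 fold change -0.90, SE 0.16, adjusted p = 0.00359). ZNF358 had 2.63, 2.05 and 1.38 CPM in knockdown libraries, against 4.76, 3.99 and 3.21 CPM in controls (log2 fold change -0.98, adjusted p = 0.0384), and was lost in 4 of the 6 fits that left out a library. ZNF414 held in all of them.

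The 250 bases upstream of the RefSeq start (GRCh38.p14) are shown for 2 rises past 2-fold and 1 fall that held without any 1 library, as promoters of genes that moved in opposite directions. Each is written 5′ to 3′ on the gene's own strand. Capitals mark the CCAAT box (CCAAT, or ATTGG where it lies on the other strand) and the GC box (GGGCGG, or CCGCCC on the other strand). Coordinates are 19:2819618-2819867 on the plus strand for ZNF554, 19:20565782-20566031 on the minus strand for ZNF737 and 19:8514168-8514417 on the minus strand for ZNF414.
ZNF554: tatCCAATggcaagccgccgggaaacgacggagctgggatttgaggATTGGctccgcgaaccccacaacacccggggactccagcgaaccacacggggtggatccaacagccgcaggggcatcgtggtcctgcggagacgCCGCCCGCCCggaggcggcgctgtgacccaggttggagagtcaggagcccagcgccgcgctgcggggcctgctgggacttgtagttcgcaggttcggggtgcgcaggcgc
ZNF737: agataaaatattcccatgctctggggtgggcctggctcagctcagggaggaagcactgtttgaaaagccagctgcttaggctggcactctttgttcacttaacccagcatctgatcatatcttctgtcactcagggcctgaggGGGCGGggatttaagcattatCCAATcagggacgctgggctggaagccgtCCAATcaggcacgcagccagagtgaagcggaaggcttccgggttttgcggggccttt
ZNF414: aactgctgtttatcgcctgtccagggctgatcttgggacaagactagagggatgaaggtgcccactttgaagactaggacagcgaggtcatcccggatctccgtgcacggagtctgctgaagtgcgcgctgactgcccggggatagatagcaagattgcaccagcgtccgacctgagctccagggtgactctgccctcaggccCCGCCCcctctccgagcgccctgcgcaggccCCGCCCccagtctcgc
The ZNF554 window holds 26 CG dinucleotides and 4 of these motifs, and the ZNF737 window 7 and 3. The ZNF414 window holds 16 CG dinucleotides and 2 GC boxes with no CCAAT box. Of the 145 genes, 126 had an entry in the promoter table. Searched on both strands, CCAAT was present in 54.8% of these windows, against 33.0% of all 27305 promoters of that length, and GGGCGG in 65.9%, against 42.3%. CCAAT was present in 63.0% of the 27 matched genes that rose in the TRIM28 knockdown. The forkhead core TGTTTAC was in 0.8% of the ZNF windows, against 3.0% of all promoters, and TATAAA in 2.4%, against 11.1%. The YY1 core AAGATGGC was in 2.4%, against 1.4%. A match says only that these letters are in the window.

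**Figure D2:**
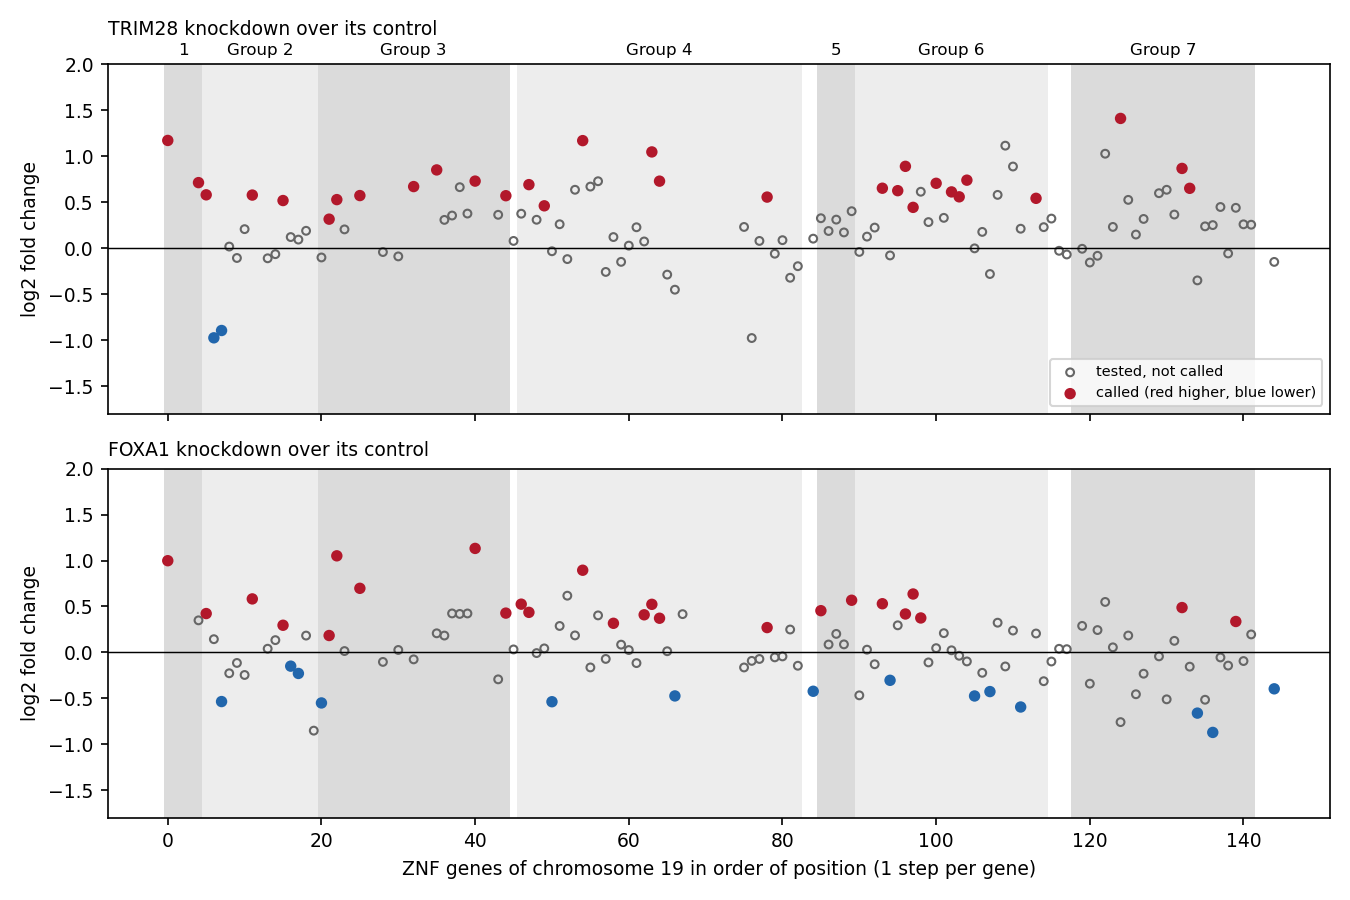
Fitted log2 fold change (knockdown over control) of each tested ZNF gene in order along chromosome 19, for the TRIM28 knockdown above and the FOXA1 knockdown below, with shading for the 7 position groups. Called genes are filled, 30 higher and 2 lower with TRIM28 and 25 higher and 14 lower with FOXA1.

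By position group, the TRIM28 knockdown gave these counts, beside the 13.3% of all genes called higher. Group 6 gave 9 rises of 24 tested, with a median log2 fold change of 0.49, and group 3 gave 7 of 16, with a median of 0.37. Both tested genes of group 1 rose, ZNF554 and ZNF77, ZNF77 by 0.71 on the log2 scale with the call lost in 4 of the 6 fits that left out a library. Group 2 gave 3 rises and both falls of 13 tested, with a median of 0.09, group 4 gave 6 rises of 29, with a median of 0.12, and group 7 gave 3 of 22, with a median of 0.29. No gene of group 5 or of the scattered genes was called, with 5 and 6 tested. Leaving out 1 control library took group 6 to 2, 3 and 3 rises and group 3 to 4, 1 and 3, so the order of the groups by calls did not hold. No test was made between groups.

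The 19p12 cluster stood out by its spread between the knockdown libraries. Of its 29 tested genes, 14, 14 and 27 lay above their control mean in knockdown replicates 1, 2 and 3, with median log2 differences of -0.03, -0.04 and 0.45. In the other groups the 3 libraries were closer, as in group 6 with 20, 22 and 22 of 24 genes above the control mean and medians of 0.32, 0.43 and 0.36. Replicate 3 is the library with the lowest TRIM28 and the highest stromal marker sum. Without it, the fit called 8 of the cluster's 30 tested genes higher and 9 lower, against 6 and 0 with all libraries. Calls over all genes also rose in that fit, to 21.5% higher and 23.5% lower, in place of 13.3% each, so the cluster's counts lie near that background. Of all 118 ZNF genes tested in that fit, 39 were called higher and 13 lower, and no test was made between groups. The cluster's 9 falls were ZNF90, ZNF730, ZNF43, ZNF93, ZNF85, ZNF726, ZNF100, ZNF254 and ZNF714, named because that fit singled them out. The other 4 falls of that fit were ZNF414, ZNF358 and ZNF317 in group 2 and ZNF473 among the scattered genes.

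ZNF93, whose protein represses LINE-1 elements of the primate lineage, had 4.21, 3.46 and 9.99 CPM in the 3 TRIM28 knockdown libraries, against 4.90, 6.24 and 6.91 CPM in controls. The first 2 knockdown libraries lay below every control and the third above every one (log2 fold change -0.03, adjusted p = 0.956, and -0.65, adjusted p = 0.0254, without replicate 3). ZNF90 showed the same split, with 0.527, 0.551 and 3.08 CPM in knockdown libraries and 1.73, 1.504 and 1.24 CPM in controls (log2 fold change -0.12, adjusted p = 0.906, and -1.46, adjusted p = 0.0194, without replicate 3). ZNF714 had 63.1, 71.5 and 87.4 CPM in knockdown libraries, against 83.1, 80.6 and 82.4 CPM in controls. ZNF43 had 18.4, 16.3 and 26.1 CPM, against 24.3, 28.7 and 30.2 CPM in controls (log2 fold change -0.45, adjusted p = 0.0811, and -0.68, adjusted p = 2.04e-05, without replicate 3). ZNF91, known for its repression of SVA elements, went the other way in all 3 libraries: it had 63.1, 75.8 and 83.1 CPM in knockdown libraries, against 52.4, 51.7 and 46.8 CPM in controls (log2 fold change 0.56, SE 0.11, adjusted p = 0.00653). ZNF675, whose protein is known to dampen TRAF6 signalling, did not separate the groups, with 21.2, 24.4 and 30.9 CPM in knockdown libraries and 27.8, 26.6 and 25.2 CPM in controls (adjusted p = 0.785).

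**Figure D3:**
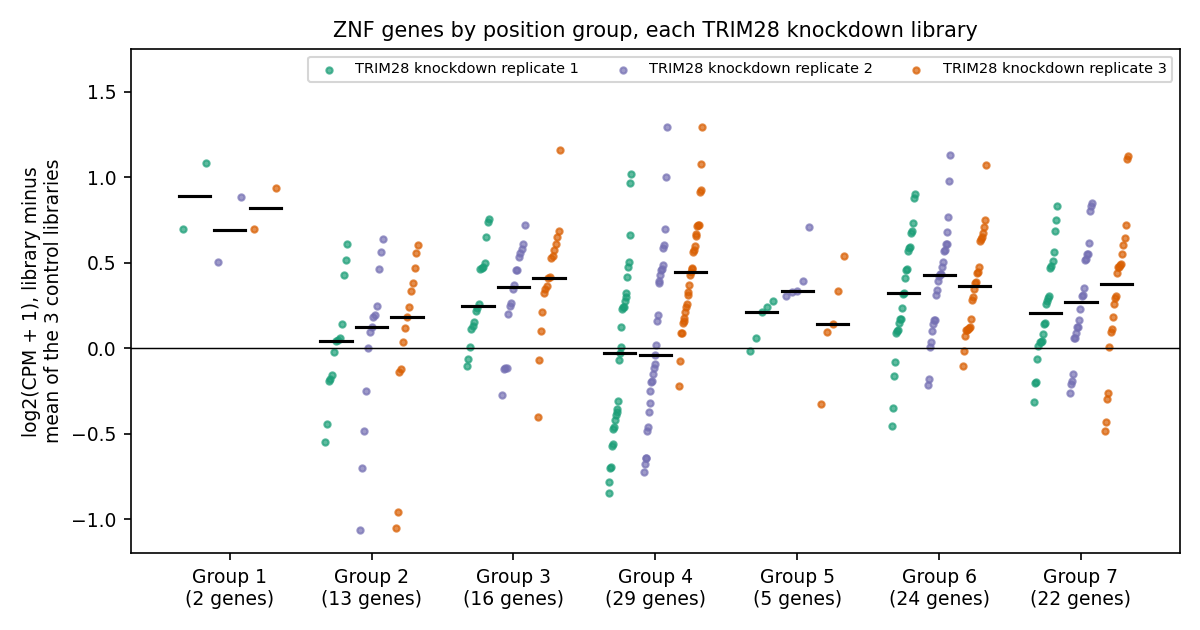
Log2(CPM + 1) of each tested ZNF gene in each TRIM28 knockdown library minus the mean of the 3 control libraries, by position group, with the median as a bar. In group 4 the medians are -0.03, -0.04 and 0.45 in replicates 1, 2 and 3, and in group 6 they are 0.32, 0.43 and 0.36.

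Some further members have a known role. ZNF568, whose mouse counterpart represses a placental Igf2 transcript with TRIM28, had 15.3, 14.4 and 15.8 CPM in TRIM28 knockdown libraries, against 8.86, 11.2 and 9.63 CPM in controls (log2 fold change 0.61, SE 0.15, adjusted p = 0.0137). ZNF382, a KRAB repressor gene silenced by promoter methylation in several tumours, had 13.4, 15.5 and 16.7 CPM, against 8.86, 10.1 and 10.6 CPM in controls (log2 fold change 0.63, adjusted p = 0.0142). Neither overlapped its controls, and each was lost in 2 of the 6 fits that left out a library. ZNF473, which takes part in the 3′ processing of histone messenger RNA, had 20.3, 18.2 and 29.1 CPM, against 23.3, 27.3 and 24.3 CPM in controls (adjusted p = 0.549). ZNF146, the most abundant gene, had 255, 267 and 257 CPM, against 229, 242 and 243 CPM in controls (log2 fold change 0.13, adjusted p = 0.24).

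The second comparison asked the same of FOXA1. Here the set moved in both directions. Of 119 ZNF genes tested, 25 rose and 14 fell, where 52.4% of 14953 genes were called, 26.1% higher and 26.3% lower. Of the ZNF genes tested, 21% were called higher and 11.8% lower, and no test was made of the difference from all genes. Where the mean over the 12 libraries reached 1 CPM, 33.6% of the ZNF genes and 54.1% of all genes were called. Their median log2 fold change was 0.04, against -0.02 for all genes, and 2 rises and no fall reached 2-fold, where 5.7% of all genes did so upward and 3.62% downward. They took 0.198%, 0.204% and 0.199% of counts in FOXA1 knockdown libraries, against 0.19%, 0.182% and 0.195% in controls. The libraries were fully apart upward for 32 ZNF genes, or 26.9% of those tested, and downward for 20, or 16.8%, where 29.2% of all genes were apart in each direction. Genes with the KRAB pattern gave 24 rises and 9 falls of 103, and those without it 1 and 5 of 16. ZNF genes further along 19q gave 38 rises and 13 falls of 94, and those on other chromosomes 49 and 41 of 201.

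The largest rise was ZNF443 of group 3 (19:12429706-12441021, minus strand), with 9.32, 9.48 and 10.3 CPM in FOXA1 knockdown libraries, against 5.18, 3.41 and 4.71 CPM in controls (log2 fold change 1.13, SE 0.17, adjusted p = 2.25e-06). Of its 50-base stretches, 37.67% also occur in transcripts of other genes, so reads may be shared with copies. ZNF823 of the same group had 14.9, 19.9 and 17.7 CPM, against 9.13, 6.82 and 9.42 CPM in controls (log2 fold change 1.05, SE 0.14, adjusted p = 2.85e-07). ZNF440, also of group 3, had 24.7, 24.0 and 25.1 CPM, against 13.2, 15.4 and 16.9 CPM in controls (log2 fold change 0.70, SE 0.11, adjusted p = 2.26e-06). All 3 were clear of their controls in every library, and all 3 held without any 1 library. ZNF554 and ZNF737 rose here too, by 1.00 and 0.89 on the log2 scale, as did ZNF567 of group 6 by 0.64, ZNF559 of group 2 by 0.58 and ZNF792 of group 5 by 0.57. Beside the 26.1% of all genes called higher and 26.3% lower, group 3 gave 5 rises and 1 fall of 16 tested. Group 4 gave 8 and 2 of 30, and group 7 gave 2 and 2 of 22. Group 1 gave 1 and 0 of 2, and group 2 gave 3 and 3 of 14. Group 5 gave 2 and 0 of 5, group 6 gave 4 and 4 of 24, and the scattered genes 0 and 2 of 6. No test was made between these groups.

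The largest falls were in group 7. ZNF233 (19:44259880-44275317, plus strand) had 2.38, 2.46 and 1.81 CPM in FOXA1 knockdown libraries, against 3.88, 4.42 and 3.87 CPM in controls (log2 fold change -0.87, SE 0.23, adjusted p = 0.00253). ZNF227 of the same group (19:44207547-44237268, plus strand) had 6.34, 5.599 and 6.14 CPM, against 9.63, 8.43 and 10.6 CPM in controls (log2 fold change -0.66, SE 0.16, adjusted p = 0.000708). ZNF93 of 19p12 had 4.03, 4.63 and 5.24 CPM, against 6.40, 6.69 and 7.06 CPM in controls (log2 fold change -0.54, adjusted p = 0.0117), a call lost without knockdown replicate 1. ZNF43 of the same cluster had 20.6, 17.2 and 20.2 CPM, against 27.2, 23.3 and 30.5 CPM in controls (log2 fold change -0.47, adjusted p = 0.000392). ZNF571 and ZNF875 of group 6 and ZNF653 of group 3 fell by 0.59, 0.47 and 0.55 on the log2 scale, though ZNF571 was lost in 3 of 6 fits without a library and ZNF653 in 1. ZNF473 had 19.9, 19.8 and 18.3 CPM, against 22.9, 26.8 and 26.6 CPM in controls (log2 fold change -0.40, adjusted p = 0.00116). In each of these genes the highest knockdown library lay below the lowest control.

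ZNF91 rose in this knockdown as well, with 59.1, 61.7 and 57.0 CPM in FOXA1 knockdown libraries and 44.5, 50.8 and 52.1 CPM in controls (log2 fold change 0.27, adjusted p = 0.00218). Of the abundant genes, ZNF260 had 83.6, 83.8 and 79.9 CPM, against 58.1, 54.7 and 58.6 CPM in controls (log2 fold change 0.53, adjusted p = 2.85e-08). ZNF121 had 116, 114 and 120 CPM, against 129, 126 and 132 CPM in controls (log2 fold change -0.15, adjusted p = 0.0178), the smallest change called, and one lost without knockdown replicate 1 or 2 (adjusted p up to 0.0928). ZNF302 had 25.2, 24.9 and 26.8 CPM, against 18.05, 19.3 and 18.8 CPM in controls (log2 fold change 0.45, adjusted p = 0.000186). ZNF568, ZNF382, ZNF675 and ZNF146 did not pass the test, with log2 fold changes of 0.02, 0.29, -0.05 and 0.03.

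The upstream 250 bases are shown in the same way for the gene with the largest rise and for ZNF227, at 19:12441022-12441271 on the minus strand and 19:44212282-44212531 on the plus strand. The RefSeq start used for ZNF227 lies inside the gene as the deposited table gives it.
ZNF443: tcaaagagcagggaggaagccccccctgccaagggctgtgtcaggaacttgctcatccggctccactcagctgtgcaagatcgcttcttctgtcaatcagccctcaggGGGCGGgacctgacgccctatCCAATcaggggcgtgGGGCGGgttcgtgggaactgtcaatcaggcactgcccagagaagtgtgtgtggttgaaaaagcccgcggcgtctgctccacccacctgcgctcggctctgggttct
ZNF227: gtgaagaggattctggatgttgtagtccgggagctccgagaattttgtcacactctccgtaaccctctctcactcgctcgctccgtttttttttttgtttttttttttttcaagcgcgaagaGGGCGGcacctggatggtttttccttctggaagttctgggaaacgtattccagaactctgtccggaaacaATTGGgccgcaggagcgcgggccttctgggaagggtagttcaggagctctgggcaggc
The ZNF443 window holds 1 CCAAT box and 2 GC boxes, and the ZNF227 window 1 of each. CCAAT was present in 69.6% of the 23 matched genes that rose with FOXA1 knockdown and in 27.3% of the 11 that fell. It was in 54.8% of all 126 ZNF windows and 33.0% of all promoters. GGGCGG was in 65.2% and 72.7%, against 65.9% and 42.3%. No test was made of these shares. The forkhead core was in none of the windows of genes that rose or fell with FOXA1 knockdown. It was in 0.8% of ZNF windows and 3.0% of all promoters, so its absence from 23 and 11 windows says little.

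Set side by side, the knockdowns called many of the same ZNF genes. Of 117 ZNF genes tested in both, 18 rose in both, 1 fell in both and 0 were called in opposite directions. With FOXA1 only 20 were called, with TRIM28 only 13 and in neither 65. Of all 14498 genes tested in both, 1421 rose in both and 1461 fell in both, while 77 and 51 were called in opposite directions. With FOXA1 only 4654 were called, with TRIM28 only 933 and in neither 5901. Opposite calls were thus few over all genes as well. The 18 ZNF genes are 60% of their TRIM28 rises and 72% of their FOXA1 rises. Over all genes, the rises in both were 71.3% of the TRIM28 rises and 36.4% of the FOXA1 rises. The knockdowns do not share control libraries. ZNF554 had 7.16 ± 0.59 CPM in the TRIM28 knockdown and 3.17 ± 0.18 CPM in its controls, and 6.35 ± 0.95 CPM in the FOXA1 knockdown and 3.18 ± 0.28 CPM in its controls (SD, n = 3 each). ZNF737 had 28.99 ± 3.52 CPM in the TRIM28 knockdown and 12.9 ± 0.10 CPM in its controls, and 22.2 ± 1.18 CPM in the FOXA1 knockdown and 12.0 ± 1.36 CPM in its controls. The single gene that fell in both was ZNF414, with 13.0 ± 1.79 CPM in the FOXA1 knockdown and 18.9 ± 2.54 CPM in its controls. The 18 were spread over groups 1, 2, 3, 4, 6 and 7. Not all were firm with TRIM28: in the 6 fits without 1 library that call was lost in 4 for ZNF443 and in 5 for ZNF823. Of all 32 TRIM28 calls, 10 held in every such fit.

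**Figure D4:**
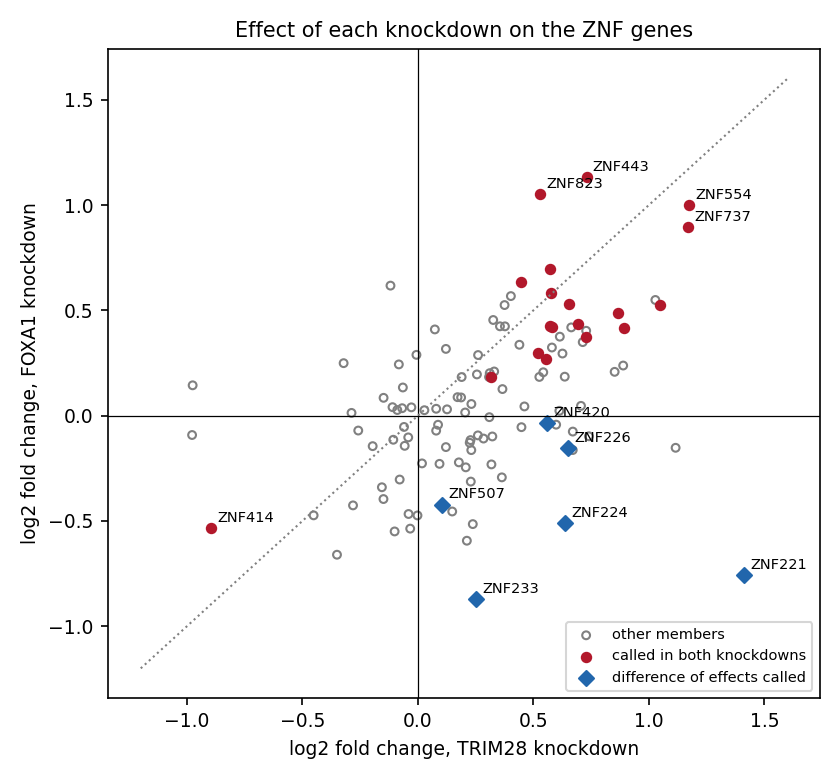
Fitted log2 fold change of each ZNF gene tested in both knockdowns, TRIM28 on the horizontal axis and FOXA1 on the vertical, with a dotted line of equal effects. Red points are called in both, 18 higher and ZNF414 lower, and blue diamonds are 6 genes for which the difference between the effects was itself called.

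Whether the effects differed was tested as the TRIM28 effect minus the FOXA1 effect over all 12 libraries. Of 121 ZNF genes, 6 had a called difference, all with the higher value in the TRIM28 knockdown, where 10.6% of all genes were called, 4.59% higher and 5.98% lower. The ZNF genes were thus called at about the rate of all genes in the upward direction. Of the 6, 4 are in group 7 within 19:43951223-44275317: ZNF221, ZNF224, ZNF226 and ZNF233. Group 7 had 22 genes tested here, and no test was made between groups. ZNF224, a KRAB protein gene known as a repressor of ALDOA and a partner of WT1, had 5.79, 5.59 and 6.01 CPM in TRIM28 knockdown libraries, against 4.97, 3.61 and 2.55 CPM in controls. It had 2.58, 2.76 and 3.63 CPM in FOXA1 knockdown libraries, against 3.38, 4.55 and 4.86 CPM in controls (difference 1.13, SE 0.35, adjusted p = 0.0451). Neither of its 2 effects was called alone. ZNF226 had 13.3, 16.5 and 13.0 CPM in TRIM28 knockdown libraries, against 10.1, 8.42 and 8.72 CPM in controls, and 8.26, 9.03 and 8.73 CPM in FOXA1 knockdown libraries, against 9.71, 8.16 and 11.2 CPM in controls (difference 0.80, SE 0.22, adjusted p = 0.0252).

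ZNF221 differed by 2.16 (SE 0.56, adjusted p = 0.0183): beside its rise with TRIM28 it had 0.925, 0.448 and 1.12 CPM in FOXA1 knockdown libraries, against 1.22, 1.81 and 1.22 CPM in controls. ZNF233 differed by 1.11 (SE 0.33, adjusted p = 0.0405), and beside its fall with FOXA1 it had 3.84, 5.11 and 4.87 CPM in TRIM28 knockdown libraries, against 4.97, 3.31 and 3.29 CPM in controls. ZNF420 of group 6 differed by 0.59 (adjusted p = 0.0495) and ZNF507, among the scattered genes, by 0.52 (adjusted p = 0.0279). Each fit that left out 1 library called between 1 and 5 of these 6. Leaving out any FOXA1 knockdown or FOXA1 control library gave 1 or 2 higher differences, leaving out TRIM28 control replicate 2 or 3 gave 2 and 1, and leaving out TRIM28 knockdown replicate 2 gave 3. Without TRIM28 knockdown replicate 3, 14 ZNF genes were called higher and 6 lower, where the calls over all genes were 8.64% higher and 12.7% lower. No single difference was called lower with all libraries. The 4 with the smallest p in that direction were ZNF358, ZNF823, ZNF714 and ZNF414, with adjusted p from 0.0806 to 0.304.

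**Figure D5:**
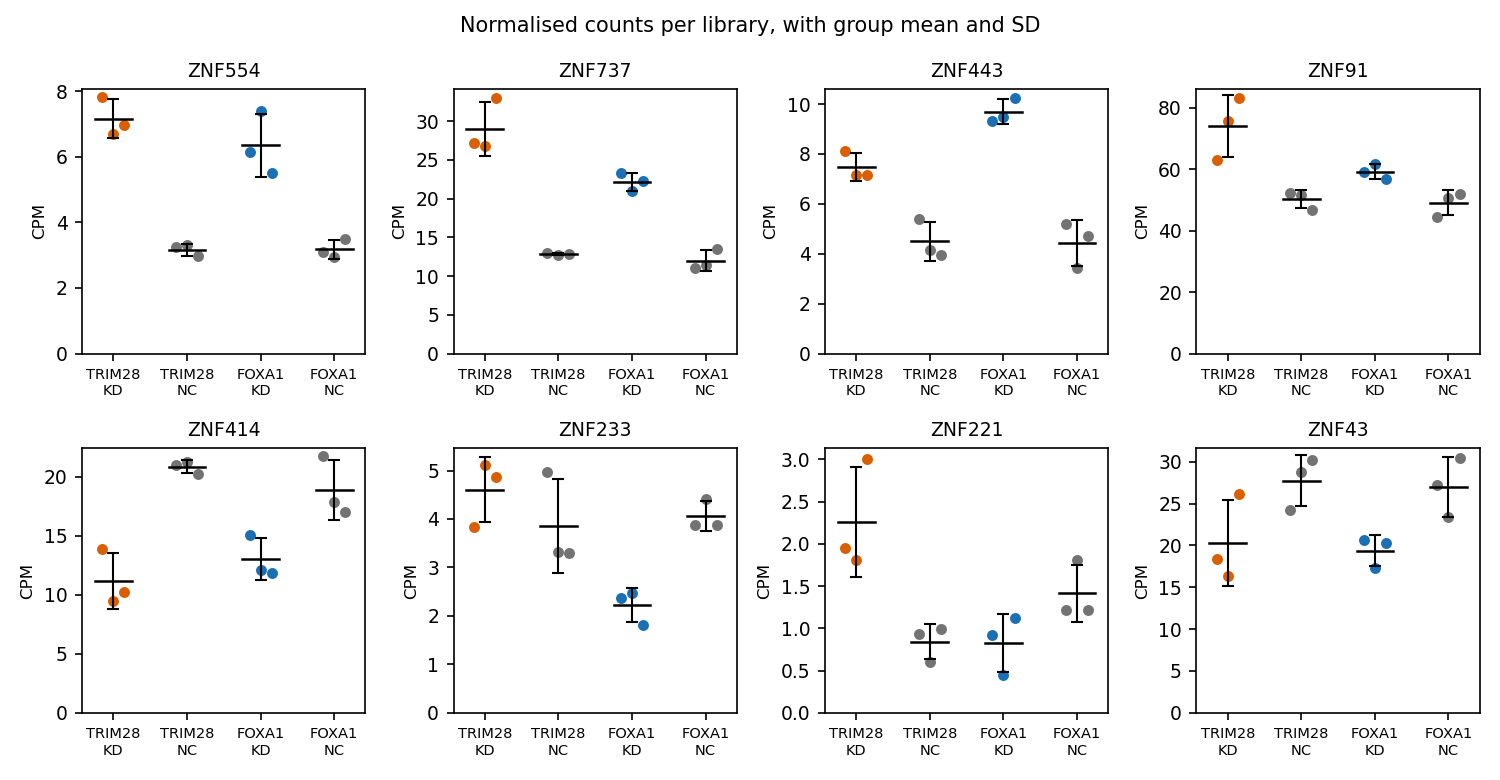
CPM of 8 ZNF genes in every library, with mean and SD (n = 3) for the TRIM28 knockdown (KD), its control (NC), the FOXA1 knockdown and its control. ZNF554, ZNF737, ZNF443 and ZNF91 are higher in both knockdowns, ZNF414 is lower in both, and ZNF221 and ZNF233 are among the 6 whose effects differed. The TRIM28 call of ZNF443 was lost in 4 of the 6 fits without 1 library.

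The control groups gave a measure of the spread without a knockdown. Of 118 ZNF genes tested between the TRIM28 controls and the FOXA1 controls, 0 were called by edgeR and 0 by DESeq2, as over all genes (0% called), and 5 had an unadjusted p under 0.05. Their libraries were fully apart upward for 8 genes, or 6.8%, and downward for 4, or 3.4%, against 4.93% and 4.43% of all genes.

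The partners through which KRAB zinc finger proteins act were followed as a list of 31 genes. In the TRIM28 knockdown 1 rose and 7 fell, TRIM28 itself among them, which is 25.8% called where 26.7% of all genes were, with a median of -0.09. DNMT3A, a de novo DNA methyltransferase, rose to 52.5 ± 5.21 CPM in the knockdown, against 28.5 ± 0.92 CPM in controls (log2 fold change 0.88, adjusted p = 0.000695). SUMO3 and SUMO2, modifiers whose attachment to TRIM28 helps recruit SETDB1, fell by 0.51 and 0.50 on the log2 scale (adjusted p = 0.004 and 0.00528). ATRX and HDAC2 did not pass the test, at 0.24 each. In the FOXA1 knockdown 6 rose and 9 fell, which is 48.4% called where 52.4% of all genes were, with a median of 0.03. SETDB1, the methyltransferase itself, fell to 28.7 ± 1.83 CPM in the knockdown, against 49.8 ± 1.04 CPM in controls (log2 fold change -0.80, adjusted p = 5.9e-10), and in the TRIM28 knockdown it had 35.5 ± 1.85 CPM, against 47.6 ± 1.79 CPM in controls (log2 fold change -0.42, adjusted p = 0.0103). DNMT1, the maintenance methyltransferase, fell by 0.46 with FOXA1 knockdown and EHMT2, which methylates the same lysine, by 0.33. Both were also called lower in the TRIM28 knockdown (log2 fold change -0.72, adjusted p = 0.0168, and -0.39, adjusted p = 0.0116). With FOXA1 knockdown UHRF1, which guides DNMT1, rose by 0.79, the histone chaperone DAXX by 0.67 and the TRIM28 relative TRIM33 by 0.46. TRIM28 itself had 332 ± 5.26 CPM in the FOXA1 knockdown, against 378 ± 27.9 CPM in controls (log2 fold change -0.19, adjusted p = 0.00221).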

How the data were processed

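RNA sequencing of poly(A) RNA gave 12 LNCaP libraries in 4 groups of 3 biological replicates, per the labels' protocols and design text. The authors deposited whole-number counts per gene, in a separate table for each knockdown and its controls, and FPKM values for all libraries. The submitters' processing notes name GRCh38 (hg38). No source used here gives the aligner, counter, strand setting or annotation. Separate cultures are not stated, so p-values measure the spread between these samples, which may be partly technical. The deposited FPKM could be rebuilt from the counts with a fixed length for each gene and the library total in all 33045 genes checked (relative tolerance 0.001). Symbols on several lines were counted once. Control groups were taken from titles and knockdown groups from treatment labels, because the genotype labels name successive gene numbers.

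Counts were fitted with edgeR 4.0.16 in R 4.3.3 (TMM scaling, filterByExpr with minimum count 10 and minimum total 15, robust quasi-likelihood F-test, two-sided) on the 6 libraries of each pair and all genes. P-values were adjusted by Benjamini-Hochberg, and 0.05 was the threshold. The difference between the effects was a contrast over 12 libraries. CPM values of ZNF genes and partners were scaled by TMM within the pair's fit. Those of the markers, and the minimum mean of 1 CPM over 12 libraries, used the library total alone. The standard error was taken from the fold change and F. Libraries held 12256092 to 15152890 counts, so genes under about 10 counts were not tested. On simulated counts, 85.8% of genes changed 2-fold were recovered in the FOXA1 design (14671 genes) and 67.5% in the TRIM28 design (14706 genes). Alternatives were DESeq2 1.42.0, other scalings, no filter, a minimum fold change of 1.2, a replicate block, 1 fit of all libraries and leaving out each library.

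KRAB A and finger patterns were searched in the longest coding translation in GENCODE release 29, in place of the RefSeq proteins planned. Sequences are from RefSeq promoters (GRCh38.p14). Genes were named by a rule: members with a known role, up to 8 rises and 8 falls per knockdown among called members with at least 2 CPM and no overlap of libraries, the 4 smallest p per direction of the difference, the highest levels overall and per position group, and up to 3 partners per direction. The members, lists and rule were chosen with earlier results of these data known. Some marker genes are not reported here.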

Additional observations from a re-analysis of the deposited data

Results flagged for a closer look

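For 6 ZNF genes the TRIM28 knockdown effect minus the FOXA1 knockdown effect was called by a test of the difference itself, in edgeR's fit of all 12 libraries. They are 4.96% of the 121 tested, near the 4.59% of all genes called higher. In either direction 10.6% of all genes were called. The log2 differences were 2.16 for ZNF221, 1.13 for ZNF224, 1.11 for ZNF233, 0.80 for ZNF226, 0.59 for ZNF420 and 0.52 for ZNF507. The first 4 lie in the same position group, group 7, where 22 genes were tested, and no test was made between groups. ZNF221 and ZNF226 rose with TRIM28 knockdown, ZNF233 and ZNF507 fell with FOXA1 knockdown, and ZNF420 rose with TRIM28 knockdown, while ZNF224 was called in neither. Each fit without 1 library called between 1 and 5 of the 6, and without TRIM28 knockdown replicate 3 it called 5.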

How the results depend on the processing

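With a minimum fold change of 1.2, the FOXA1 knockdown kept 13 rises and 6 falls of 119 ZNF genes tested. The TRIM28 knockdown kept 13 rises and 1 fall of 117, and the difference 1 higher value of 121. Over all genes that setting called 15.1% higher and 13.7% lower with FOXA1 and 5.73% and 5.11% with TRIM28. For the difference it called 1.65% and 2.8%. DESeq2, run without the filter on low counts, gave 21 rises and 7 falls with FOXA1 and 25 rises and 1 fall with TRIM28. It called 9.9% of 34174 genes higher and 9.29% lower with FOXA1. With TRIM28 it called 5.36% and 5.58% of 35253 genes. The main fits tested 14953 and 14981 genes, so these shares cannot be set directly against theirs. Library size alone gave 1 fall with TRIM28, where 10.0% of all genes were called lower. It gave 11 higher differences, where 7.07% of all genes had one. The cause of these shifts was not tested. Leaving out 1 library at a time gave 22 to 27 rises and 10 to 14 falls with FOXA1. It gave 11 to 39 rises and 1 to 13 falls with TRIM28, and 1 to 14 higher and 0 to 6 lower differences. Over all genes these fits called 23.3% to 24.7% higher and 22.3% to 25.1% lower with FOXA1. With TRIM28 they called 5.97% to 21.5% higher and 5.65% to 23.5% lower. For the difference the shares were 2.6% to 8.64% higher and 4.48% to 12.7% lower. Every such fit of the control groups called 0 ZNF genes. No named gene changed sign where it was called, under any alternative run. Of the calls with all libraries, 26 of 39 with FOXA1 and 10 of 32 with TRIM28 were called in every fit without 1 library. The replicate numbers did not pair the samples (same-number correlations of deviations from -0.021 to 0.103 with FOXA1 and from -0.084 to 0.025 with TRIM28). A fit with a replicate block gave 25 rises and 15 falls with FOXA1, 28 and 3 with TRIM28, and 4 higher differences. Over all genes it called 26.3% higher and 27.1% lower with FOXA1, and 12.4% and 13.3% with TRIM28. For the difference it called 4.1% and 5.82%. Depth limits the list: 26 of the 145 genes with FOXA1 and 28 with TRIM28 had too few counts to test.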

Other observations

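ZNF541, a scattered gene of the set chosen here after its values were seen, was below the filter on low counts in the fit of each pair with all its libraries. It had 14, 6 and 5 counts in TRIM28 knockdown libraries, against 1, 1 and 0 counts in their controls. It had 21, 19 and 8 counts in FOXA1 knockdown libraries, against 1, 2 and 1 counts in theirs. It was tested in 7 alternative fits of the FOXA1 knockdown, among them DESeq2 and edgeR's fit without that filter. It was called higher in all 7, with adjusted p from 1.01e-05 to 0.00134. These fits share most of their libraries, so they are not separate support. In these fits, and in the TRIM28 fits that follow, ZNF541 was tested without the filter or passed it only through its knockdown counts. Its p-values are therefore no support for a rise. ZNF541 was called higher in 2 alternative fits of the TRIM28 knockdown. They were the fit without the filter (adjusted p = 0.00862) and the fit with all 12 libraries (adjusted p = 0.00403), while DESeq2 gave ZNF541 no adjusted p. ZNF793 of group 6, also chosen after its values were seen, had 3.46, 4.33 and 1.95 CPM in TRIM28 knockdown libraries, against 2.16, 0.827 and 1.48 CPM in controls. Its log2 fold change was 1.12 (adjusted p = 0.0666), and 1.37 (adjusted p = 0.00121) without knockdown replicate 3.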
